A study of Mus musculus with 2 samples.

Results

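The genes of the translation initiation factors (eIF) and translation elongation factors (eEF) were compared between a library of mouse mammary basal cells with a scrambled short hairpin RNA (Scramble control) and a library of such cells with a hairpin against Cdk14 (Cdk14-sh). The members are the genes whose symbol begins with Eif or Eef followed by a digit, without the Eif2ak kinases and without symbols that hold -ps, a mark of pseudogenes. They came to 57 of the 15239 genes listed, all protein coding. The labels describe both libraries as normal mammary gland tissue of Mus musculus that differ in the hairpin, and the age, strain and number of animals and of hairpins are not given in the sources used here. With 1 library in either group there is no replicate check and no test. Intervals given with a ratio are 95% intervals for counting error, and they compare these 2 libraries, not the conditions.

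Translation begins when eIF2 brings the initiator tRNA to the small ribosomal subunit, which eIF1, eIF1A and eIF3 hold ready for scanning. The eIF4 factors bind the cap of the messenger RNA and unwind its leader, and eIF5 and eIF5B complete start codon selection and the joining of the large subunit. Elongation then depends on eEF1A, which delivers aminoacyl-tRNAs, its exchange factor eEF1B, and eEF2, which moves the ribosome along. These factors are made in all tissues, and their activity is set by nutrient and stress signalling, chiefly through the mTORC1 kinase and through phosphorylation of eIF2.

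Levels are in FPKM, fragments scaled to exonic length and library size, and all levels were above 0. Totals of 10186924 reads in Scramble control and 10177185 reads in Cdk14-sh were inferred from the values, taking a common low value as 2 reads. They are estimates, and the reads recovered for the genes summed to 112% of each. Cdk14, the targeted gene, was at 2.06 FPKM in Scramble control and 0.713 FPKM in Cdk14-sh, 34.5% of the control level. All 12 basal markers were measured, with a summed level of 3271 FPKM in Scramble control and 2517 FPKM in Cdk14-sh; 4 of them (Trp63, Krt5, Krt15 and Oxtr) were higher in Cdk14-sh and 8 lower. Of 8 retina markers, which were checked because the extraction protocol names retinas, 2 were listed, Gnat1 and Opn1sw, each under 2 FPKM in both libraries. Markers of other cells moved between the libraries. The summed level of endothelial markers (10 measured of 12) was 229 FPKM in Scramble control and 61.7 FPKM in Cdk14-sh, that of luminal markers (7 of 12) 1174 and 667 FPKM, that of pericyte markers (4 of 6) 127 and 59.6 FPKM, and that of immune markers (6 of 10) 108 and 387 FPKM. Of these, 9 of 10 endothelial, 4 of 7 luminal, 3 of 4 pericyte and 1 of 6 immune markers were lower in Cdk14-sh. Fibroblast markers (6 of 10) summed to 299 and 121 FPKM through the abundant Gsn and Dcn, whereas the other 4 were higher in Cdk14-sh and the list's median log2 ratio was 1.02. Their part in the differences given here was not tested, and in bulk RNA fewer cells of a type and less RNA per cell cannot be told apart.

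Fewer of the translation factor genes were past 2-fold than of all measured genes, while counting intervals without 1 were common in both. Genes whose 2 libraries averaged 1 FPKM or more are called measured, and all 57 members were among them. On the scale of log2 of (FPKM + 1), 4 members were 2-fold or more above Scramble control in Cdk14-sh and 3 were 2-fold or more below, together 12.3% of the members, whereas 27.8% of the 12819 measured genes were past 2-fold (14.3% higher and 13.5% lower). The members are abundant, and of the 3287 genes averaging 20 FPKM or more 16.2% were past 2-fold (8.46% higher and 7.7% lower). By class of abundance, 3 of 15 members under 20 FPKM were past 2-fold (31.8% of measured genes in that class), 1 of 26 from 20 to 100 FPKM (17.4%) and 3 of 16 at 100 FPKM or more, 18.8% of them, where 78 of 681 measured genes were, a lower share. The SD of their log2 ratios was 0.66 under 20 FPKM, 0.41 from 20 to 100 FPKM and 0.50 at 100 FPKM or more, where all measured genes had SDs of 1.08, 0.84 and 0.70. The members' median log2 ratio was 0.16, beside 0.02 for all measured genes, and 35 members (61.4%) were above 0, where 51.4% of measured genes were. The counting interval of the ratio lay above 1 for 29 members and below 1 for 13, and it held 1 for the remaining 15; over all measured genes it lay above 1 for 35.8% and below 1 for 33.1%. Among the 3287 abundant genes 56.5% were above 0, and the interval lay above 1 for 44.9% and below 1 for 33.8%.

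**Figure D1:**
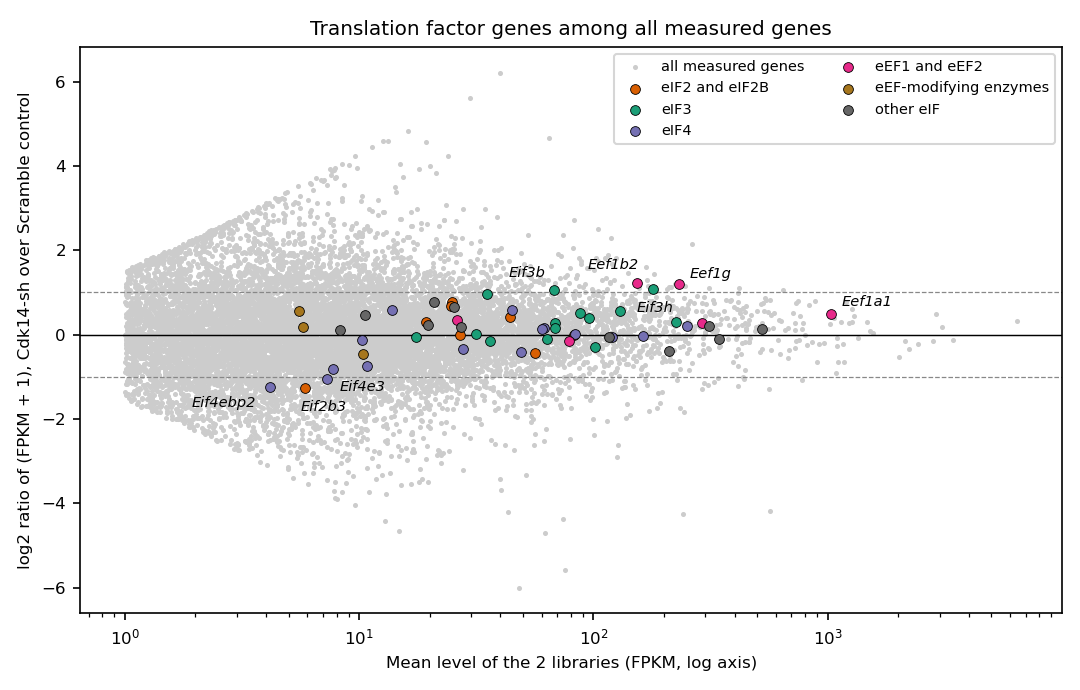
Mean FPKM of the 2 libraries (log axis) against the log2 ratio of (FPKM + 1), Cdk14-sh over Scramble control, for 12819 measured genes (grey) and the 57 translation factor genes (colour by group). Dashed lines mark 2-fold; 4 members lie on or above the upper line, 3 lie below the lower line, and the grey points spread wider at the same abundance.

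The members past 2-fold were few, and some genes of their groups went the other way, though only Eef1e1 among the 6 eEF genes. The 4 that were higher are subunits of the eEF1B exchange factor, Eef1b2 (chromosome 1, 63176825 to 63180486) and Eef1g (chromosome 19, 8967041 to 8978479), and of eIF3, Eif3h (chromosome 15, 51786558 to 51865523) and Eif3b (chromosome 5, 140419328 to 140443360). The 3 that were lower include a catalytic subunit gene of eIF2B, Eif2b3 (chromosome 4, 117019402 to 117087306). The others are Eif4ebp2 (chromosome 10, 61428491 to 61452661), whose product competes with eIF4G for eIF4E, and Eif4e3 (chromosome 6, 99625135 to 99666771), a minor cap-binding gene. Coordinates are gene bounds in GRCm38. Of the 4 higher genes Eif3b alone has no near-identical copy, so that 1 of the 33 members without copies was past 2-fold higher; the copy of Eif3h is 1 pseudogene. All 3 lower genes had means under 20 FPKM, and the 4 higher genes were at 43.6 FPKM or more in each library.

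**Figure D2:**
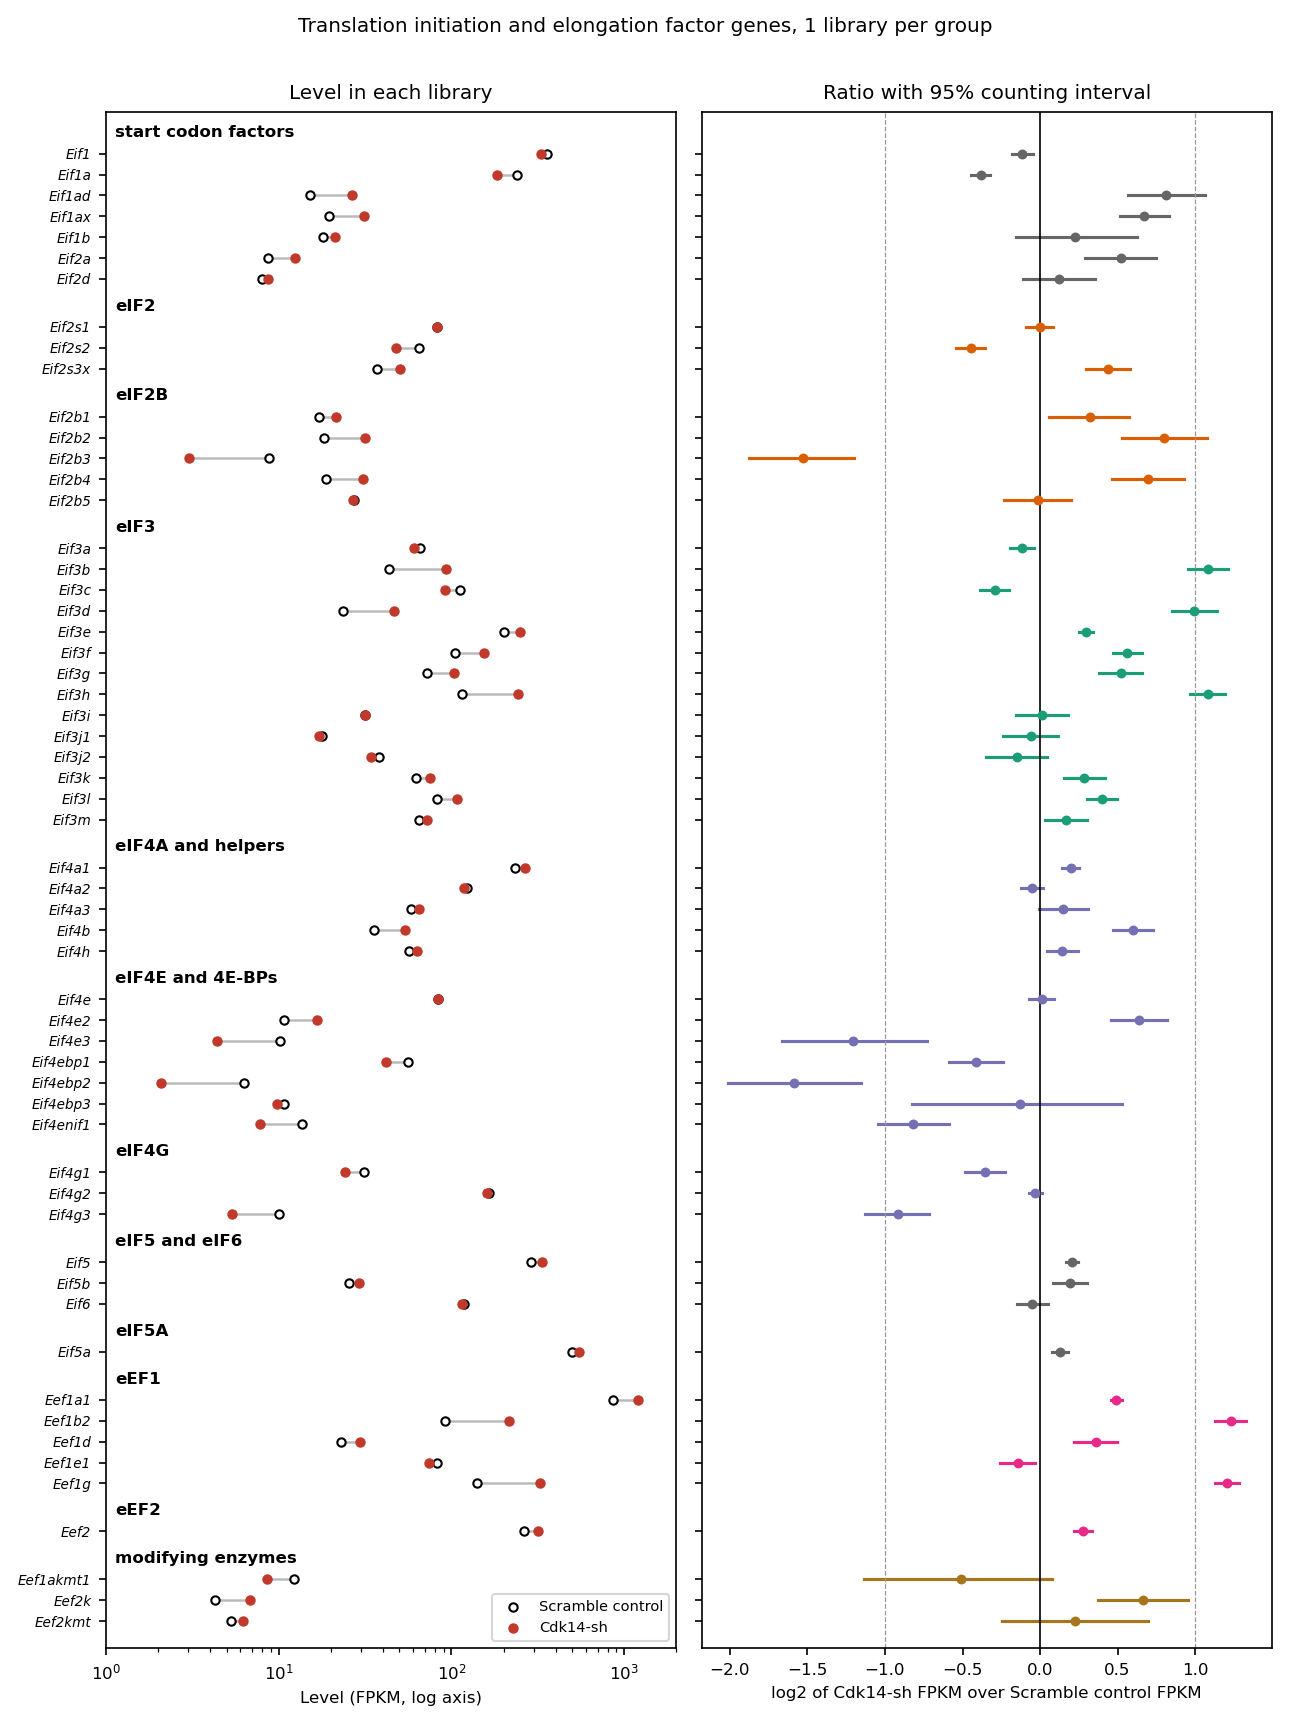
Left, the FPKM of each of the 57 genes in Scramble control (open) and Cdk14-sh (red) on a log axis, grouped by role; right, log2 of the FPKM ratio without a pseudocount, with its 95% counting interval. The intervals of Eef1b2, Eef1g, Eif3b and Eif3h centre to the right of the 2-fold line, and those of Eif2b3, Eif4ebp2 and Eif4e3 to the left of the other.

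Promoter windows (250 bases before to 50 bases after a start site, RefSeq, GRCm38.p6) were matched by symbol for 43 of the 57 members. In these windows 11 motifs were searched on both strands, chosen while the windows were being read, and all are given here. The E-box CACGTG, the site of Myc and related factors, was present in the windows of 11 of the 43 members (25.6%), in those of 12.1% of 8118 measured genes with a window and in 7.15% of all 32851 windows. The ETS core GGAAGT was present in 22 of the 43 (51.2%), 31.9% of measured genes and 23.8% of all windows. The other 9 motifs were at shares close to those of measured genes. TATAAA was in 4 of the 43 (9.30%, beside 8.50% of measured genes and 13.6% of all windows), and TGATGNAA, found in Atf4 response elements, in 2 (4.65%, beside 2.60% and 3.97%). Of pyrimidine runs, CTCTTTC was in 4 (8.71% of measured genes and 8.16% of all windows), the run CTTTCC in 11 (30.3% and 26.6%) and the run CTTTTCC in 5 (9.55% and 8.06%). The core ATGGCGGC of the YY1 motif was in 3 (6.26% and 2.24%) and the longer YY1 motif in 1 (2.06% and 0.633%). The palindromic NRF1 motif was in 1 (2.33% and 0.971%), and the palindrome with CGCG at its centre, known from housekeeping promoters, in 0 (1.21% and 0.466%). Matches of different motifs can overlap, and the E-box and the ETS core are the motifs that stood out among those searched, so their shares are a description chosen after looking. A match is only a run of letters. The median log2 ratio was 0.20 for the 11 members with an E-box, 9 of them above 0, and also 0.20 for the 32 without, 21 of them above 0. Windows around the E-box are shown for genes of the cap complex and for elongation factor eEF2, as examples from the 11 members with it. Capitals mark the E-box, and each window is printed 5′ to 3′ on the gene's own strand.
Eef2 (plus strand, chr10:81176576-81176605): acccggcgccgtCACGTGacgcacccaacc
Eif4e (plus strand, chr3:138527192-138527221): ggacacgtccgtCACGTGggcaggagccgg
Eif4a1 (minus strand, chr11:69672595-69672624): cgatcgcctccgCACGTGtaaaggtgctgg
Eif4g1 (plus strand, chr16:20672661-20672690): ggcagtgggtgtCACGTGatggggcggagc
The first base of the E-box shown lies 43 bases before the start in Eef2, 64 bases in Eif4e, 189 bases in Eif4a1 and 54 bases in Eif4g1. Eif4e has another E-box 228 bases before the start, and Eif4g1 another that begins at base 16, with the start as base 1. These genes did not move together: their FPKM ratios, given with their groups below, ran from 0.782 for Eif4g1 to 1.21 for Eef2.

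Genes of start codon recognition were mixed, with 5 of 7 above 0 and none past 2-fold. Eif1, which guards start codon fidelity, was the most abundant, at 356 FPKM in Scramble control and 329 FPKM in Cdk14-sh, 1.08-fold lower (1.03 to 1.13). Its paralog Eif1b was at 18.1 and 21.1 FPKM, within counting error, so that Eif1 gave most of the pair's summed FPKM, 95.2% in Scramble control. The 2 genes of eIF1A, which keeps the small subunit open for scanning, went in opposite directions. Eif1a was at 239 and 183 FPKM, 1.30-fold lower (1.25 to 1.36), and the X-linked Eif1ax was at 19.6 and 31.3 FPKM, 1.59-fold higher (1.43 to 1.78). The share of Eif1a in their summed FPKM was 92.4% in Scramble control and 85.4% in Cdk14-sh. Eif1ad, whose product carries an eIF1A domain, was at 15.2 and 26.7 FPKM, 1.76-fold higher (1.48 to 2.09), and a gene on the opposite strand covers 15.3% of its exonic bases. Eif2a, an alternative carrier of initiator tRNA, was at 8.69 and 12.4 FPKM, 1.43-fold higher (1.22 to 1.68), and Eif2d, a related tRNA-binding factor, at 7.96 and 8.67 FPKM, within counting error. For Eif1, 13 other annotated genes hold a stretch of at least 100 bases that is at least 95% identical to its coding sequence, and 12 of these are pseudogenes that could share its reads.

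The subunits of eIF2 and of its exchange factor eIF2B each went in different directions. The alpha subunit gene Eif2s1, whose product is the target of the stress kinases, was at 82.4 FPKM in Scramble control and 82.2 FPKM in Cdk14-sh. The beta subunit gene Eif2s2 was at 64.7 and 47.4 FPKM, 1.36-fold lower (1.28 to 1.45), and Eif2s3x, the gene of the GTP-binding gamma subunit, was at 37.3 and 50.5 FPKM, 1.35-fold higher (1.23 to 1.49). The quotient of alpha over gamma was 2.21 in Scramble control and 1.63 in Cdk14-sh. Of the eIF2B genes, those of the regulatory subunits were higher in Cdk14-sh. Eif2b1 (alpha) was at 17.1 and 21.3 FPKM, 1.25-fold higher (1.04 to 1.49), Eif2b2 (beta) at 18.2 and 31.7 FPKM, 1.74-fold higher (1.44 to 2.11), and Eif2b4 (delta) at 18.9 and 30.6 FPKM, 1.62-fold higher (1.38 to 1.91). The genes of the catalytic pair were not. Eif2b5 (epsilon), the exchange subunit, was at 27.2 and 26.9 FPKM, and its partner Eif2b3 (gamma) was at 8.73 and 3.03 FPKM, 2.88-fold lower (2.30 to 3.67), from 580 and 201 reads. Over the 8 genes of eIF2 and eIF2B the median log2 ratio was 0.15, with 4 above 0 and 4 below, and the summed FPKM was 274 in Scramble control and 294 in Cdk14-sh.

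eIF3, the largest initiation complex, binds the small subunit and links it to the cap-binding factors. Of its 14 genes 10 had log2 ratios above 0 and 4 below, with a median of 0.29. The 2 past 2-fold higher make 14.3% of the 14, beside 14.3% of all measured genes and 8.46% of those averaging 20 FPKM or more. None was past 2-fold lower. The summed FPKM of the 14 genes was 1034 in Scramble control and 1378 in Cdk14-sh, a ratio of 1.33. In the core octamer (a, c, e, f, h, k, l and m), 6 of 8 genes had counting intervals above 1. Such intervals were found for 35.8% of measured genes and 44.9% of those averaging 20 FPKM or more. Eif3h, the gene of a subunit with an MPN domain, was at 115 and 243 FPKM, 2.11-fold higher (1.95 to 2.29). Eif3f, which carries the other MPN domain, was at 104 and 154 FPKM, 1.48-fold higher (1.38 to 1.58). Eif3e was the most abundant in both libraries, at 202 and 248 FPKM, 1.23-fold higher (1.19 to 1.27). Eif3l (82.1 and 108 FPKM), Eif3k (62.0 and 75.5 FPKM) and Eif3m (64.6 and 72.4 FPKM) were between 1.12-fold and 1.32-fold higher. The large scaffold subunit genes were the exceptions. Eif3a was at 65.8 and 60.6 FPKM, 1.09-fold lower (1.03 to 1.14), and Eif3c at 112 and 91.5 FPKM, 1.23-fold lower (1.15 to 1.31).

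In the module of b, g and i, which sits near the decoding site, the genes were unequal. Eif3b was at 43.6 FPKM in Scramble control and 92.4 FPKM in Cdk14-sh, 2.12-fold higher (1.94 to 2.32), Eif3g at 71.7 and 103 FPKM, 1.44-fold higher (1.30 to 1.58), and Eif3i at 31.4 and 31.7 FPKM. Eif3d, the gene of the subunit that can itself bind the cap, was at 23.4 and 46.6 FPKM, 1.99-fold higher (1.80 to 2.20) and just under the 2-fold limit. A gene on the opposite strand covers 43.3% of its exonic bases, and the sources used here do not give whether reads were counted by strand. The near-identical genes Eif3j1 (17.8 and 17.1 FPKM) and Eif3j2 (37.9 and 34.1 FPKM) were within counting error. Of the 500 measured genes nearest in mean FPKM, 26 had a log2 ratio as high as that of Eif3b or higher, and 29 as high as that of Eif3h.

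**Figure D3:**
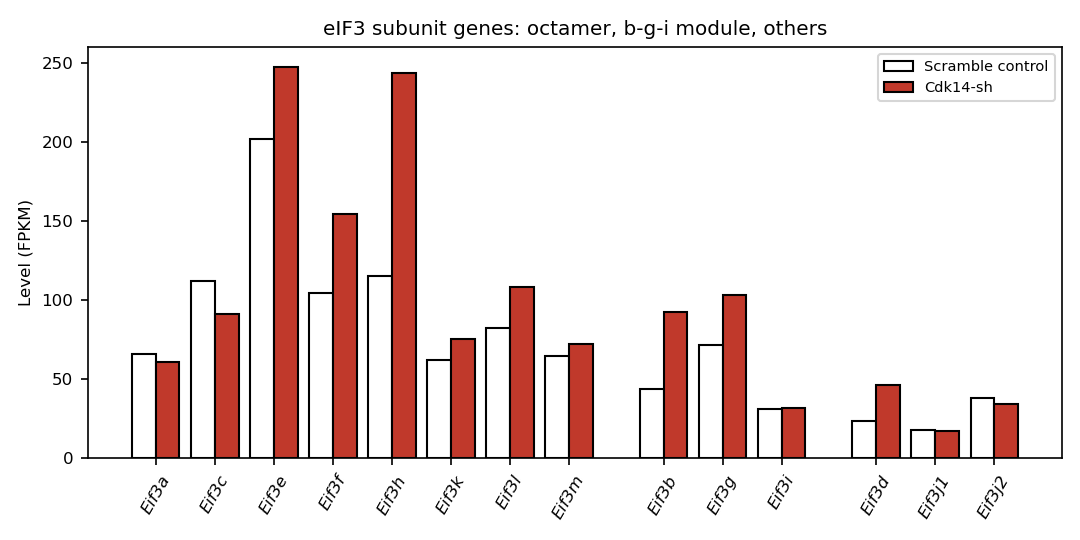
FPKM of the 14 eIF3 genes in Scramble control (white) and Cdk14-sh (red), 1 library each, ordered as octamer, b-g-i module and others. Eif3h, Eif3b and Eif3d are about 2-fold higher in Cdk14-sh, and Eif3a and Eif3c are lower.

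The eIF4 genes showed no common direction. Their median log2 ratio was -0.05, with 6 of 15 above 0, none past 2-fold higher and 2 past 2-fold lower, and their summed FPKM was 903 in Scramble control and 924 in Cdk14-sh. The 2 lower genes, both averaging under 20 FPKM, make 13.3% of the eIF4 genes. Past 2-fold lower were 13.5% of all measured genes and 7.7% of those averaging 20 FPKM or more. The helicase genes were near even. Eif4a1 was at 232 and 267 FPKM, 1.15-fold higher (1.10 to 1.19), and its paralog Eif4a2 at 123 and 118 FPKM, within counting error. Eif4a3, the helicase of the exon junction complex, was at 58.1 and 64.5 FPKM, also within counting error. Of the helicase cofactors, Eif4b was at 35.7 and 54.0 FPKM, 1.52-fold higher (1.39 to 1.66), and Eif4h at 57.1 and 63.1 FPKM, 1.10-fold higher (1.03 to 1.18).

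Around the cap-binding protein, the factor itself was level and most genes of its partners were lower. Eif4e was at 83.4 FPKM in Scramble control and 84.1 FPKM in Cdk14-sh. The eIF4E-binding proteins compete with eIF4G for eIF4E until mTORC1 phosphorylates them. Of their genes, Eif4ebp1 was at 55.8 and 41.9 FPKM, a ratio of 0.751 (0.664 to 0.848). Eif4ebp2 was at 6.27 and 2.09 FPKM, a ratio of 0.334 (0.247 to 0.450), from about 369 and 123 reads. Eif4ebp3 was at 10.8 and 9.82 FPKM, within counting error, and a gene on the same strand covers 67.3% of its exonic bases. Summed, the binding protein genes stood at 72.8 FPKM and 53.8 FPKM, or 0.873 and 0.640 of the Eif4e level. Eif4enif1, which carries eIF4E to the nucleus and to processing bodies, was at 13.7 and 7.79 FPKM, a ratio of 0.567 (0.486 to 0.666).

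The minor cap-binding proteins diverged. Eif4e2, a cap-binding protein that represses translation, was at 10.8 FPKM in Scramble control and 16.7 FPKM in Cdk14-sh, 1.56-fold higher (1.37 to 1.76), and Eif4e3 was at 10.2 and 4.41 FPKM, 2.30-fold lower (1.66 to 3.17). A gene on the same strand covers 14.8% of the exonic bases of Eif4e3. All 3 eIF4G scaffold genes had ratios below 1. Eif4g1 was at 31.0 and 24.3 FPKM, 1.28-fold lower (1.17 to 1.40), and its paralog Eif4g3 at 10.1 and 5.34 FPKM, 1.89-fold lower (1.64 to 2.18). Eif4g2, which lacks the eIF4E-binding site and serves cap-independent initiation, was the most abundant at 165 and 161 FPKM, within counting error. The more abundant scaffold thus differed least.

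The genes of eIF5, eIF5B, eIF6 and eIF5A were nearly level, and all but Eif5b were at 100 FPKM or more in both libraries. Eif5, which activates the GTPase of eIF2, was at 290 FPKM in Scramble control and 334 FPKM in Cdk14-sh, 1.15-fold higher (1.12 to 1.18). Eif5b, the GTPase that joins the ribosomal subunits, was at 25.4 and 29.1 FPKM, 1.14-fold higher (1.06 to 1.24), and a gene on the opposite strand covers 16.8% of its exonic bases. Eif6, which keeps the large subunit apart until it is mature, was at 119 and 114 FPKM, within counting error. Eif5a, whose hypusine-bearing product eases peptide bonds at difficult sequences, was the second most abundant member, at 499 and 544 FPKM, 1.09-fold higher (1.05 to 1.13).

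The median log2 ratio of the elongation factor genes was 0.42 over the 6 genes of eEF1 and eEF2, beside 0.29 for eIF3, 0.15 for eIF2 with eIF2B and -0.05 for eIF4. This order turned without genes that have near-identical copies. The median was then 0.10 for the 2 eEF genes left, 0.34 for 8 of eIF3, 0.30 for 5 of eIF2 with eIF2B and -0.19 for 8 of eIF4. Those 2 eEF genes were Eef1d (0.35) and Eef1e1 (-0.14), the latter known as a scaffold of the multi-synthetase complex. Genes such as Eif3d and Eif4e3, whose counted copy is a gene that overlaps them, were left out as well. These group medians describe 2 libraries, and the difference between groups was not tested. The summed FPKM of the 6 genes was 1457 in Scramble control and 2166 in Cdk14-sh, a ratio of 1.49. Eef1a1, which delivers aminoacyl-tRNAs, was the most abundant member in both libraries, at 857 and 1205 FPKM, 1.40-fold higher (1.37 to 1.44). Its exchange factor genes were Eef1b2, at 92.1 and 216 FPKM, 2.34-fold higher (2.19 to 2.51), Eef1g, at 141 and 325 FPKM, 2.31-fold higher (2.19 to 2.44), and Eef1d, at 22.9 and 29.5 FPKM, 1.28-fold higher (1.17 to 1.41). The quotient of Eef1a1 over Eef1b2 was accordingly 9.30 in Scramble control and 5.58 in Cdk14-sh. Of the 500 measured genes nearest in mean FPKM, 19 had a log2 ratio as high as that of Eef1b2 or higher, and 15 as high as that of Eef1g.

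Copies bear on these values. Near-identical annotated genes numbered 9 for Eef1a1, 4 for Eef1g and 1 for Eef1b2, all pseudogenes. Those listed for Eef1g, 2 in number, summed to 42.0 FPKM in Scramble control and 109 FPKM in Cdk14-sh, and the 1 of Eef1b2 was at 32.2 and 30.6 FPKM. The sources used here do not give how reads that map to several genes were treated. Eef2, the translocation factor, was at 262 and 317 FPKM, 1.21-fold higher (1.16 to 1.26). Its inhibitory kinase gene Eef2k was at 4.29 and 6.80 FPKM, 1.59-fold higher (1.29 to 1.94). Eef1e1, named with the complex but known as a scaffold of the multi-synthetase complex, was the lower one of the eEF1 genes, at 82.2 and 74.4 FPKM, 1.11-fold lower (1.02 to 1.19). The methyltransferase genes Eef2kmt (5.30 and 6.19 FPKM) and Eef1akmt1 (12.2 and 8.58 FPKM) were within counting error.

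A property that cuts across these groups is the TOP element, a run of pyrimidines that starts the messenger RNA of ribosomal proteins and of several translation factors and places them under mTORC1 and Larp1. The list of TOP messages held 12 members: Eef1a1, Eef1b2, Eef1d, Eef1g, Eef2, Eif2s3x, Eif3e, Eif3f, Eif3h, Eif3k, Eif3l and Eif4b. All 12 had log2 ratios above 0 and counting intervals above 1, with a median of 0.46, from 0.28 for Eef2 to 1.22 for Eef1b2. Each of the 12 averaged 20 FPKM or more. Of the 3287 measured genes at that level, 56.5% were above 0 and 44.9% had intervals above 1. At 100 FPKM or more, 62.0% of measured genes were above 0, with a median of 0.19. The part of abundance in the values of the TOP list was not tested. Of the 45 other members 23 were above 0 and 22 below, with a median of 0.01. Within eIF3 the 5 subunits on the list had a median of 0.40 and the 9 others a median of 0.01, with means of 0.52 and 0.23. The 9 others were mixed, with 5 above 0 and 4 below. Of them Eif3b (1.07), Eif3d (0.96) and Eif3g (0.52) were above the median of the listed subunits. Without genes that have near-identical copies, the 5 listed members left had a median of 0.40, all above 0, and the 28 others a median of 0.13. The TOP list was drawn up with the earlier finding on ribosomal protein genes known, so its direction is not independent of that finding.

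Ribosomal protein genes, the main class of TOP messages, were set beside them. The median log2 ratio was 0.61 over 84 genes, with 82 above 0, from -0.17 for Rpl35a to 1.17 for Rpl22. Of the 20 cytosolic aminoacyl-tRNA synthetase genes, which make the substrates of elongation, 13 were above 0, 4 were past 2-fold higher and 1 past 2-fold lower, with a median of 0.16, from Dars at 28.2 and 13.2 FPKM to Yars at 6.97 and 19.3 FPKM. Together 25% of the synthetase genes were past 2-fold, beside 27.8% of measured genes. Not all listed TOP messages outside the members were higher: Pabpc1, the gene of the main poly(A)-binding protein, was at 160 FPKM in Scramble control and 150 FPKM in Cdk14-sh, 1.07-fold lower (1.02 to 1.11).

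**Figure D4:**
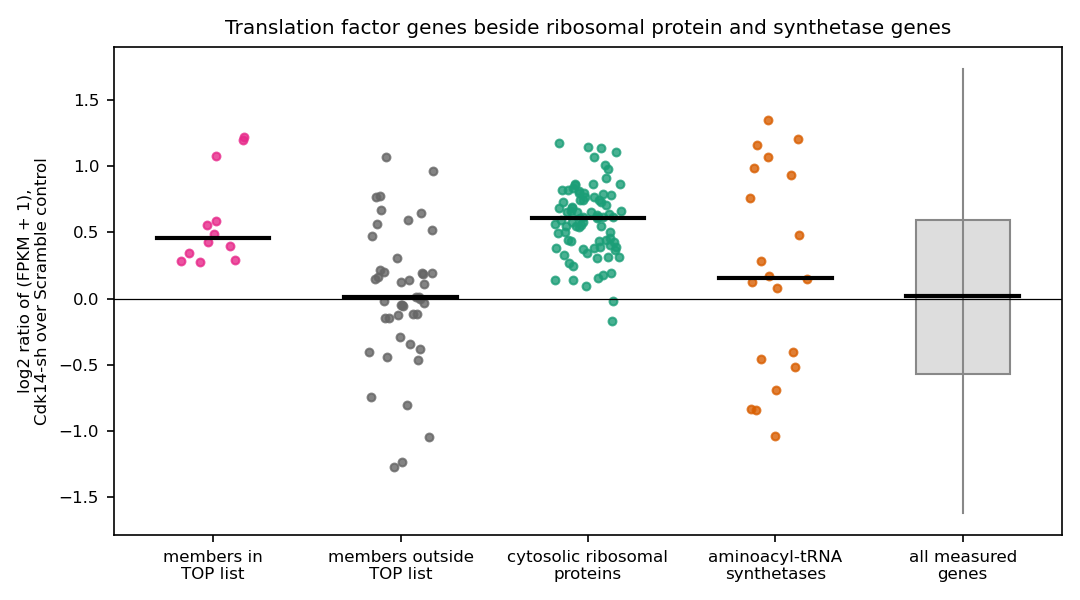
Log2 ratio of (FPKM + 1), Cdk14-sh over Scramble control, for each gene of 4 lists, with the median as a black bar; the box for all measured genes spans the middle 50% and its line the middle 90%. The 12 members in the TOP list lie above 0, as do 82 of 84 ribosomal protein genes, whereas the 45 other members lie on both sides.

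In the RefSeq windows, a start at C followed by 4 bases that are each C or T was found for 2 of the 43 matched members, beside 3.23% of measured genes and 2.51% of all windows. Both are on the TOP list, and they are printed 5′ to 3′ on the gene's own strand from 15 bases before the start, with the unbroken run of pyrimidines from the start in capitals.
Eif3f (plus strand, chr7:108934400-108934429): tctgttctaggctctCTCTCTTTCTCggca
Eif2s3x (minus strand, chrX:94212637-94212666): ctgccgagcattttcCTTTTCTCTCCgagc
Each run holds 11 pyrimidines. Annotated starts can lie off the true cap site, so the windows of the other listed members say nothing of their leaders.

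Genes that act on these factors were described by list. Of the 10 eIF2 kinase, phosphatase and related genes, 4 were above 0, with a median of -0.09 (-0.28 over the 8 that averaged 5 FPKM or more), and the list held 1 gene past 2-fold in each direction. Together these were 20% of the list, beside 27.8% of measured genes past 2-fold. The interferon-induced kinase PKR (Eif2ak2), which is activated by double-stranded RNA, was at 10.4 FPKM in Scramble control and 0.567 FPKM in Cdk14-sh, 18.4-fold lower (10.8 to 32.8), from 543.5 and 29.5 reads. The kinase GCN2 (Eif2ak4), which senses uncharged tRNA, was at 2.01 and 6.40 FPKM, 3.18-fold higher (2.46 to 4.20). Among 15 genes of the Atf4 response, Atf4 itself (the transcription factor that phosphorylated eIF2 induces) and its targets, 10 were above 0, 3 were past 2-fold higher and 1 past 2-fold lower, with a median of 0.18. Together 26.7% of the 15 were past 2-fold, beside 27.8% of measured genes. The list ran from Nupr1, at 20.1 and 9.18 FPKM, to Sesn2, an inhibitor of mTORC1, at 2.54 and 17.9 FPKM.

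Of 13 measured genes of mTORC1 and of kinases that act on translation factors, 7 were above 0, with a median of 0.15 and a mean of -0.01. Past 2-fold, 1 was higher and 2 were lower, together 23.1% of the list, beside 27.8% of measured genes. The extremes were Mlst8, an mTOR partner, at 0.408 FPKM in Scramble control and 3.05 FPKM in Cdk14-sh, and the kinase gene Rps6ka3 at 9.77 and 2.50 FPKM. The values of Mlst8 rest on about 18.4 reads in Scramble control and 138 reads in Cdk14-sh. Poly(A)-binding protein genes and their regulators were mostly lower, with 7 of 9 below 0 and a median of -0.20, from Pabpn1 at 8.05 and 4.06 FPKM to Larp4b at 21.7 and 25.5 FPKM, and none was past 2-fold. Genes of the hypusine and polyamine pathway, which modifies eIF5A, were above 0 in 6 of 9, with a median of 0.26, from Sat1 at 378 and 310 FPKM to Dohh, the last enzyme of hypusine synthesis, at 7.56 and 16.7 FPKM. Termination and recycling factors were above 0 in 6 of 9, with a median of 0.37. They ran from the release factor gene Etf1 at 92.5 and 65.1 FPKM to the ribosome rescue gene Pelo at 0.614 and 6.45 FPKM. The values of Pelo rest on 10 reads in Scramble control and 105 reads in Cdk14-sh.

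The remaining lists had medians near that of all genes or below it. Of 15 other regulators of initiation 8 were above 0, with a median of 0.07 and none past 2-fold, from Lsm14a to the helicase gene Dhx29, at 2.99 FPKM in Scramble control and 5.78 FPKM in Cdk14-sh. Of 10 selenocysteine and diphthamide genes 5 were above 0, with a median of 0.02, from Secisbp2 at 5.64 and 0.977 FPKM to Sepsecs at 0.183 and 3.48 FPKM. The values of Sepsecs rest on 13 reads in Scramble control and 247 reads in Cdk14-sh. Of 10 measured factors of mitochondrial translation 4 were above 0, with a median of -0.21 and a mean of 0.01. The median was 0.11 over the 4 that averaged 5 FPKM or more. The list ran from the recycling factor gene Mrrf at 13.7 and 5.58 FPKM to Mtrf1l at 0.0602 and 2.71 FPKM. The values of Mtrf1l rest on 2 reads in Scramble control and 90 reads in Cdk14-sh.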

How the data were processed

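The authors deposited 1 table of FPKM values with a column for each library. The submitters' processing notes list Bowtie 0.12.2, Subread 1.5.1 and featureCounts as tools, and mm8 beside GRCm38 as builds, with no role for either. Per the labels' protocols, the library kit was a stranded one for mRNA. Sample labels give mammary basal cells and were followed, with mouse gene identifiers; elsewhere the labels give MDA-MB-231, a human line, as the material of the series and retinas as the tissue extracted. No listed gene was at 0.

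Reads were recovered from the FPKM and exonic lengths of GENCODE M21 (GRCm38); 79.2% of 15195 genes and 36 of 57 members gave multiples of 0.5 reads in both libraries (tolerance 0.01 reads), and read numbers of the others are approximate. Recovered reads summed to 112% of each total. For each ratio, the Cdk14-sh share of a gene's fragments (2 reads each) was given a Clopper-Pearson interval, which is exact and binomial and covers counting error only. Log2 ratios use a pseudocount of 1, which understates differences of low genes; folds and ratios in the text use none. Where a symbol occurred more than once, its most abundant gene was kept. Copies were sought with blastn 2.17.0 (95% identity over 100 bases). Genes that overlap a member were not excluded, and the 1 copy counted for each of Eif3d, Eif4e3 and Eef2k is such a gene. Python 3.11.15, pandas 2.3.3 and scipy 1.17.1 were used, and the calculation was checked on simulated data. The simulation drew whole fragments and used the same exonic lengths, so it cannot speak for genes whose read numbers are approximate. The rule for named genes took the 3 highest and 3 lowest members of each role, the most abundant, paralog pairs and, from other lists, the highest and lowest gene; remaining members are named as parts of their complex, chosen after their values were seen, as was Pabpc1 for its direction. Of 11 promoter motifs searched, none was left out of the text; they were chosen while looking at the members' windows. The members and lists were chosen with earlier results of these data known. Alternatives were other pseudocounts, filters, scalings and fold limits, group means, summed symbols and a correction for length and GC content.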

Additional observations from a re-analysis of the deposited data

How the results depend on the processing

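No paired analysis was possible because each group held 1 library, and for the same reason no library could be left out. At a limit of 1.5-fold, 11 members were higher and 5 lower (25.3% and 24.5% of measured genes), and at 4-fold 0 were higher and 0 lower (3.27% and 2.69%). With a pseudocount of 5, 0 were lower at 2-fold (4.77%). Without members that have near-identical copies, an alternative chosen after seeing the data, 1 of 33 was at least 2-fold higher. The medians were then -0.19 for eIF4, 0.10 for eEF (2 genes, Eef1d and Eef1e1), 0.34 for eIF3 and 0.30 for eIF2 with eIF2B. With group means, eIF4 stood at -0.21, eEF at 0.57 and the TOP list at 0.60. With both libraries scaled to the same sum of FPKM, the ratio of the summed FPKM of eIF4, 1.02 as deposited, turned to 0.978. The median of members outside the TOP list, 0.01, turned to -0.06 under that scaling. With a correction for length and GC content the ribosomal protein median was 0.48. The cause of these shifts was not tested, except that fewer genes enter without copies. The other alternatives left both counts within 1.5 times. Among single-gene FPKM ratios, 14 moved beyond their counting interval under a scaling or pseudocount and 271 did not. No scaling moved the median of all genes by more than 0.05. Counting error limits Eif4ebp3, Eef1akmt1 and Eef2kmt most, with under 170 reads in each library.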

Other observations

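The rule left out 5 listed pseudogene rows of these families. Eif4a-ps4 was at 45.2 FPKM in Scramble control and 37.8 FPKM in Cdk14-sh (interval of the ratio 0.700 to 0.999), opposite in direction to Eif4a1, of which it is a near-identical copy. Eif3s6-ps1, a copy of Eif3e, was at 0.418 and 2.09 FPKM, from 2 and 10 reads, and the intervals of it and of Eif3s6-ps2, Eif1-ps1 and Eif5al3-ps held a ratio of 1. The genes Eef1a2, Eif2s3y, Eif4e1b and Eif5a2, paralogs of members, were not analysed here.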
